A study of Mus musculus with 8 samples.

Results

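The genes described here make, bind and break down hyaluronan, and they were followed in cells from LRP1 KO mice, which the series describes as endothelial knockouts, and from wild-type mice. The set holds 8 of the 22520 genes in the RNA-Seq table, chosen by gene symbol: Has1, Has2, Has3, Cd44, Hyal1, Hyal2, Vcan and Tnfaip6. All 8 symbols were found, and each gene was read in all 8 libraries. The rule uses no measured value, but the set was proposed with earlier results of these data known. Of the 8 genes, 5 passed the filter on low values, at least 1 FPKM in at least 4 libraries, and entered the fit across genes, while Has1, Has2 and Has3 did not. FPKM counts the fragments of a gene against its transcript length in kilobases and the mapped fragments of the library. It thereby corrects for length, so levels can be set side by side between genes.

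The series compared 4 libraries from LRP1 KO mice with 4 from wild-type (WT) littermates, to learn how gene expression in the endothelium depends on LRP1, an endocytic and signaling receptor. The study describes its sequenced cells as separate sets from liver and from heart and lung, whereas the labels of these libraries give mixtures, so the genotypes are those of the study's mice in general. There, the WT mice carried floxed alleles and no Cre (LRP1 f/f; Cdh5-CreER-/-) and the LRP1 KO mice carried the same floxed alleles with the inducible recombinase under the endothelial Cdh5 promoter (LRP1 f/f; Cdh5-CreER+/-). All mice were C57BL/6 at postnatal day 14, and all libraries were mixtures of microvascular cells from heart, liver and lung, so a level cannot be assigned to an organ. Whether a library held 1 animal or a pool, whether cells were cultured, and how the recombinase was induced are not given in the sources used here, and p-values measure only the spread between these libraries, which may be in part technical. The WT group lacks CreER, so an effect of the recombinase and the loss of Lrp1 cannot be told apart.

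Hyaluronan is a long unbranched sugar polymer of glucuronic acid and N-acetylglucosamine. Synthases in the plasma membrane (Has1, Has2 and Has3) join the sugars and push the chain out of the cell, where it becomes part of the glycocalyx on the endothelial surface and of the matrix around vessels. Cd44 is the main cell-surface receptor for it, versican (Vcan) is a large proteoglycan that binds the chain, and the secreted protein of Tnfaip6 (TSG-6) moves protein chains onto it. Hyal2, at the cell surface, and Hyal1, in the lysosome, are hyaluronidases that cut the polymer into pieces.

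The deletion was visible in the targeted gene. Lrp1 lay between 103 and 140 FPKM in the WT libraries and between 2.79 and 7.72 FPKM in the LRP1 KO libraries, and the mean in LRP1 KO was 3.99% of that in WT (log2 fold change of FPKM + 1 of -4.45, SE 0.23, limma adjusted p = 8.89e-05). The values had been quantile normalized, so every library has nearly the same distribution and its depth is unknown. LRP1 KO replicate 4 stood apart from its group: on the first principal component, which held 60.8% of the variance, it lay at 0.102, the other LRP1 KO libraries at 17.2 or above and the WT libraries at -12.9 or below. Markers of cell types other than the labelled endothelium were high in the WT libraries. In them the endothelial adhesion genes Pecam1 and Cdh5 reached at most 8.76 and 11.2 FPKM, and the higher endothelial genes Eng and Emcn 61.7 and 30.8 FPKM, against at least 1094 FPKM of the mesothelial gene Msln and 726 FPKM of the collagen gene Col1a2, the highest or next-highest markers of their lists. In LRP1 KO, Pecam1 and Cdh5 reached 36.3 and 47.3 FPKM, while Msln was at least 911 FPKM and Col1a2 at least 576 FPKM in libraries where Lrp1 was at most 7.72 FPKM. In which cell types Lrp1 was lost was not tested. The methods give selection with beads against PECAM-1, a step meant to remove the other cell types. The libraries are therefore called by their labels and not as pure endothelium, and in such bulk samples fewer cells of a type and less RNA per cell cannot be told apart.

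Cd44 and Vcan were the members that passed the test, and both were higher in LRP1 KO. The 250 bases upstream of their RefSeq gene starts (GRCm38.p6) are shown 5′ to 3′ on the gene's strand, because these are the promoter stretches of the genes that rose; capitals mark a GC box, the 6-base motif GGGCGG on either strand. The window for Cd44 is chr2:102901666-102901915 and that for Vcan is chr13:89742513-89742762, both on the minus strand.
Cd44: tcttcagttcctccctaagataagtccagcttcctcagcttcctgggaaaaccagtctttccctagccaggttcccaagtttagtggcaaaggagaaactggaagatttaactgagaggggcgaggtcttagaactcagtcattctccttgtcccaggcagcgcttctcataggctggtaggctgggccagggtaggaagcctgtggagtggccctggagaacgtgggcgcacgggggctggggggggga
Vcan: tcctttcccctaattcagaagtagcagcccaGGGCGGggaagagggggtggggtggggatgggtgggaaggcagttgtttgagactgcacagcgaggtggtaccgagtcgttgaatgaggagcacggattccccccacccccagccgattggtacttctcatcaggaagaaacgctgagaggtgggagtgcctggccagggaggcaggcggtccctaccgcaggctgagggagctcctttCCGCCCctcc
The Cd44 window is 56.4% G and C and holds no GC box, while the Vcan window is 62.4% G and C and holds GC boxes at 219 to 214 and at 10 to 5 bases before the start. Of 32851 promoter windows of this length, 32.7% hold that motif. The AP-1 motif TGANTCA, on either strand, is in 6.75% of the windows and in neither of these, and the FoxO core GTAAACA, on either strand, is in 3.17% and in neither. Promoter entries were matched for 6 of the 8 members, Has1, Cd44, Hyal1, Hyal2, Vcan and Tnfaip6. Among them the AP-1 motif was found in Tnfaip6 alone, at 142 to 136 bases before the start, as TGAGTCA, and the FoxO core in none. A motif match is a description of letters and not of a site in use, and the motifs were chosen after the expression values were seen.

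Hyaluronan synthase transcripts were scarce in every library. Their summed level was 0.944, 0.762, 1.16 and 1.17 FPKM in WT replicates 1 to 4 and 1.04, 1.28, 1.38 and 1.32 FPKM in LRP1 KO replicates 1 to 4, and these ranges overlapped. Has2, the synthase gene that mouse embryos need for heart development, lies on chromosome 15 (56665627 to 56694539, minus strand, GRCm38). Has2 was 0.325, 0.367, 0.602 and 0.595 FPKM in WT and 0.729, 0.748, 0.955 and 0.688 FPKM in LRP1 KO. Every LRP1 KO library lay above every WT library, with WT replicates 1 and 2 the lowest of all. The mean was 0.472 ± 0.147 FPKM (SD, n = 4) in WT and 0.780 ± 0.119 FPKM (SD, n = 4) in LRP1 KO, for which a two-sided exact permutation test returned p = 0.0286, the lowest that 4 against 4 libraries can reach.

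Has3, which makes shorter chains than Has2, ran the other way. Has3 (chromosome 8, 106870242 to 106884566, plus strand) was 0.312, 0.246, 0.312 and 0.318 FPKM in WT and 0.105, 0.138, 0.141 and 0.240 FPKM in LRP1 KO. All LRP1 KO libraries lay below all WT libraries, but LRP1 KO replicate 4 came close to WT replicate 2. The means were 0.297 ± 0.0341 FPKM (SD, n = 4) in WT and 0.156 ± 0.0583 FPKM (SD, n = 4) in LRP1 KO, with the same exact permutation p of 0.0286. Has1 (chromosome 17, 17843323 to 17855205, minus strand) overlapped between the groups. It was 0.307, 0.149, 0.243 and 0.257 FPKM in WT and 0.206, 0.396, 0.283 and 0.394 FPKM in LRP1 KO, with an exact permutation p of 0.229.

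The p-values of Has1, Has2 and Has3 are not adjusted for multiple tests. Groups that do not overlap were common among genes this low. Of 3477 genes under the filter that reached 0.1 FPKM in a library, 8.80% were higher in every LRP1 KO library, as Has2 was, and 7.65% were lower in every one, as Has3 was. At these levels the number of reads behind a value is unknown. Has2 shares 182 exonic bases, 4.30% of its exonic sequence, with the antisense gene Has2os, and Has3 shares 352, or 5.52%, with Chtf8 on the other strand. Whether the counting used strand is not stated, so reads from these stretches cannot be told apart. Chtf8 was 39.3 to 41.5 FPKM in WT and 36.4 to 38.4 FPKM in LRP1 KO (limma adjusted p = 0.114).

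The shares of the synthases in their summed level are given here as a description. Has2 made up 34.4%, 48.2%, 52.1% and 50.8% of the summed FPKM in WT and 70.1%, 58.4%, 69.2% and 52.0% in LRP1 KO. The 2 groups met at LRP1 KO replicate 4, whose share fell just under that of WT replicate 3. Has3 made up 26.9% to 33.1% in WT and 10.1% to 18.2% in LRP1 KO, without overlap.

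**Figure D1:**
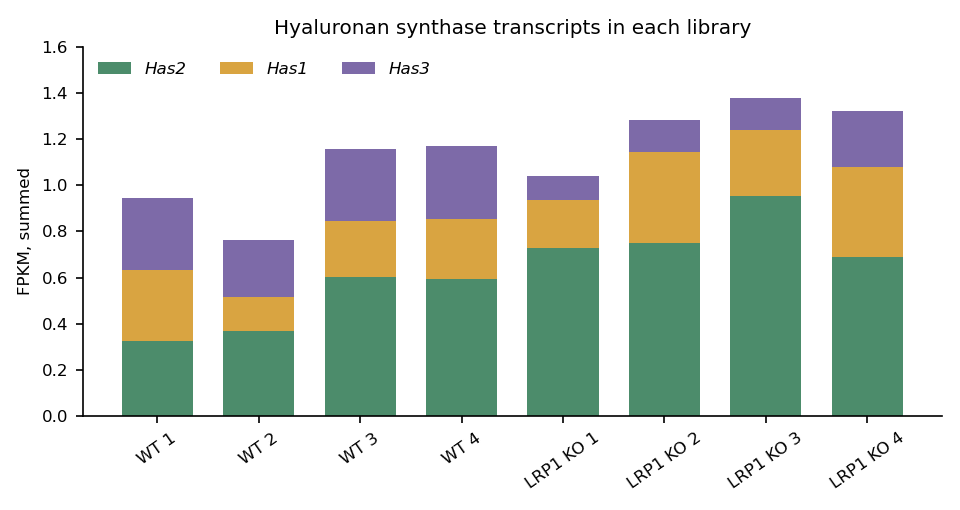
Stacked bars give the FPKM of Has2, Has1 and Has3 in each of the 4 WT and 4 LRP1 KO libraries, labelled by replicate, on an axis that starts at 0. The Has2 segment is taller and the Has3 segment shorter in all LRP1 KO libraries, while the full bars overlap, from 0.762 to 1.17 FPKM in WT and from 1.04 to 1.38 FPKM in LRP1 KO.

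Cd44 showed the largest change of the 5 tested members. The gene lies on chromosome 2 (102811141 to 102901665, minus strand). Cd44 was 7.66, 9.57, 12.4 and 12.1 FPKM in WT and 28.4, 21.5, 29.6 and 14.7 FPKM in LRP1 KO. No library of one group reached the other, and LRP1 KO replicate 4 was the nearest to WT. The mean rose from 10.4 ± 2.25 FPKM (SD, n = 4) to 23.6 ± 6.88 FPKM (SD, n = 4), a ratio of 2.26. On the log2(FPKM + 1) scale it rose by 1.08 (SE 0.22, 95% interval 0.59 to 1.57), with a limma adjusted p of 0.0170 by the Benjamini-Hochberg method over all 11389 genes tested. Without WT replicate 2 the value was 1.05 and no longer passed (adjusted p = 0.0568), and without LRP1 KO replicate 4 it was 1.28 (adjusted p = 0.00142).

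Vcan, on chromosome 13 (89655312 to 89742509, minus strand), rose less. It was 6.90, 5.31, 6.77 and 8.66 FPKM in WT and 9.05, 11.7, 12.4 and 9.80 FPKM in LRP1 KO. The groups did not overlap, with WT replicate 4 just under LRP1 KO replicate 1. The mean went from 6.91 ± 1.37 FPKM (SD, n = 4) to 10.7 ± 1.58 FPKM (SD, n = 4), and the log2 fold change of FPKM + 1 was 0.58 (SE 0.14, 95% interval 0.27 to 0.89, limma adjusted p = 0.0283). The call was close to the threshold. It was lost without WT replicate 1, 2 or 3 or LRP1 KO replicate 2 or 3, with adjusted p between 0.0578 and 0.0810, and with no filter on low values (adjusted p = 0.0575). The fold change stayed between 0.47 and 0.68 whichever library was left out.

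Tnfaip6 (chromosome 2, 52038009 to 52056686, plus strand) did not pass the test. It was 1.97, 1.25, 1.88 and 1.52 FPKM in WT and 2.27, 2.56, 1.98 and 2.97 FPKM in LRP1 KO. The groups lay apart by the smallest of margins, between WT replicate 1 and LRP1 KO replicate 3. The log2 fold change of FPKM + 1 was 0.38 (SE 0.12, 95% interval 0.10 to 0.65, limma adjusted p = 0.0666), and it was 0.54 with a pseudocount of 0.1 and 0.16 with 5.

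The hyaluronidases differed less. Hyal2 (chromosome 9, 107567945 to 107572779, plus strand) was 16.2, 17.6, 14.7 and 17.1 FPKM in WT and 16.4, 15.9, 12.4 and 15.8 FPKM in LRP1 KO. Its log2 fold change of FPKM + 1 was -0.12 (95% interval -0.33 to 0.09, limma adjusted p = 0.404), with overlapping groups. Hyal1, which starts 4147 bases beyond Hyal2 on the same strand (107576927 to 107581710), was 4.40, 4.70, 4.34 and 4.14 FPKM in WT and 4.04, 4.22, 3.73 and 4.25 FPKM in LRP1 KO. Its log2 fold change of FPKM + 1 was -0.09 (95% interval -0.25 to 0.06, limma adjusted p = 0.368), again with overlap. The level of Hyal1 is uncertain, since 1920 of its exonic bases, or 50.8%, are shared on the same strand with Naa80 and 159 with Hyal3. Naa80 was 7.24 to 9.94 FPKM in WT and 7.71 to 9.04 FPKM in LRP1 KO.

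**Figure D2:**
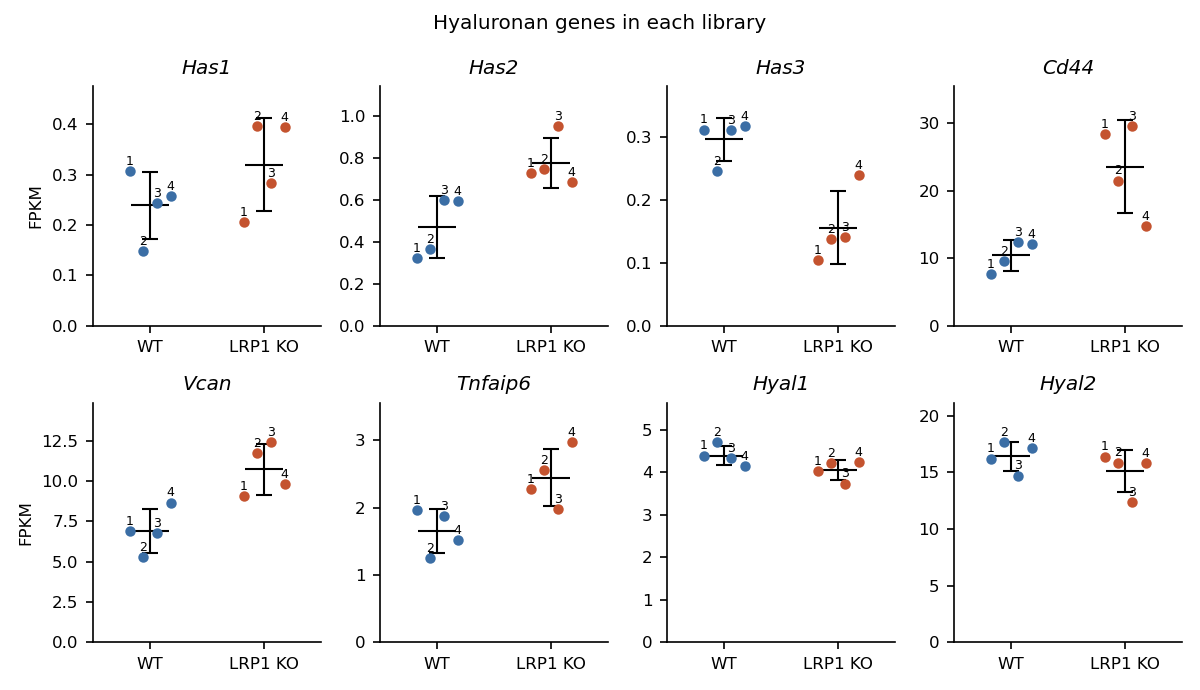
Each panel gives 1 gene in FPKM, on its own axis that starts at 0, with a point for each library numbered by replicate and a bar for the mean ± SD of 4 libraries. The groups lie apart for Has2, Cd44, Vcan and Tnfaip6, all higher in LRP1 KO, and for Has3, lower in LRP1 KO, and they overlap for Has1, Hyal1 and Hyal2.

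Of the 5 tested members, 2 were higher at an adjusted p under 0.05 and 0 were lower, where 13.6% of all tested genes passed, 6.27% as higher and 7.31% as lower. Cd44 alone also reached a 2-fold change of FPKM + 1. That call was made for 1.62% of tested genes, 1.12% as higher and 0.500% as lower. The estimate for Cd44 was under 2-fold without WT replicate 1 (0.95), LRP1 KO replicate 1 (0.97) or LRP1 KO replicate 3 (0.96), and with a pseudocount of 5 (0.86). Cd44, Vcan and Tnfaip6 were higher in every LRP1 KO library than in any WT library, as were 8.84% of tested genes, and 19.6% of tested genes lay apart in either direction. The median log2 fold change of the 5 tested members was 0.38, against -0.01 over all 11389 genes tested. In the fit without LRP1 KO replicate 4, 2 members were again higher and 0 lower, but in that fit 26.5% of all tested genes passed, 12.6% as higher and 13.9% as lower. No member passed without WT replicate 2, and 1 passed without WT replicate 1 or 3 or LRP1 KO replicate 2 or 3.

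The order of the levels also differed between the groups at its top and bottom. In WT it ran, from high to low, Hyal2, Cd44, Vcan, Hyal1, Tnfaip6, Has2, Has3 and Has1. The ranges of Cd44 and Vcan, and those of Has3 and Has1, overlapped over the 4 WT libraries. In LRP1 KO it ran Cd44, Hyal2, Vcan, Hyal1, Tnfaip6, Has2, Has1 and Has3, with overlap between Cd44 and Hyal2 and between Has1 and Has3. The ratio of Cd44 to Hyal2, receptor to surface hyaluronidase, was 0.473, 0.543, 0.846 and 0.704 in WT and 1.74, 1.36, 2.39 and 0.933 in LRP1 KO. It was below 1 in all WT libraries and above 1 in all LRP1 KO libraries other than replicate 4.

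Cd44 and Vcan were also compared within the groups. With each gene's log2(FPKM + 1) centred within its group, the Pearson correlation of Cd44 with Vcan over the 8 libraries was 0.29, a description with no test over libraries that share 1 normalization. Among the 7399 genes whose mean log2(FPKM + 1) was 3 or more, those most like Cd44 by this measure were Ghr, the growth hormone receptor (0.99), Ghitm, a mitochondrial membrane protein (0.98), and Ets1, a transcription factor of endothelial and lymphoid cells (0.98). Those most like Vcan were Srp54b, a subunit of the signal recognition particle (0.94), Kif20a, a mitotic kinesin (0.94), and Ly6c1, a surface antigen of endothelial and myeloid cells (0.94). These are the highest of 7399 correlations over 8 libraries, and whether they exceed what chance gives was not tested. With the other tested members, Cd44 ran from -0.66 (Hyal1) to -0.40 (Hyal2) and Vcan from -0.72 (Hyal1) to 0.04 (Tnfaip6).

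The wider hyaluronan pathway was read from 7 further lists with 43 genes in the table, of which 25 were tested. Of these, 1 was higher and 2 were lower, a share close to the 13.6% of all tested genes, and their median log2 fold change was 0.07. In the fit without LRP1 KO replicate 4, 3 were higher and 5 lower, beside 12.6% and 13.9% of all tested genes. The enzymes that make the UDP-sugar precursors were all tested (8 of 8), and none passed, although 7 had a positive fold change and their median was 0.17. The highest of them, Uap1l1, a relative of the enzyme that forms UDP-N-acetylglucosamine, was 101 to 135 FPKM in WT and 95.8 to 104 FPKM in LRP1 KO (limma adjusted p = 0.145).

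Among the other hyaluronan receptors, 4 of 5 were tested and none passed. Layn (layilin), the highest, lay at 33.0 to 42.7 FPKM in WT and 33.2 to 42.2 FPKM in LRP1 KO (log2 fold change of FPKM + 1 of 0.03, 95% interval -0.20 to 0.27). Lyve1, the hyaluronan receptor of lymphatic vessels and of some macrophages, was 9.71 to 17.9 FPKM in WT and 40.8, 19.0, 32.8 and 8.83 FPKM in LRP1 KO replicates 1 to 4 (adjusted p = 0.194). Stab1, a scavenger receptor of sinusoidal endothelium and macrophages, was 11.1 to 15.4 FPKM in WT and 43.1, 26.2, 30.1 and 10.3 FPKM in LRP1 KO (adjusted p = 0.118). Both lay above WT in LRP1 KO replicates 1, 2 and 3 and below every WT library in replicate 4. Without replicate 4, 2 of the 4 tested receptors were higher, as were 12.6% of all tested genes.

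Ptx3, a pentraxin that joins TSG-6 and the inter-alpha-inhibitor chains in the hyaluronan matrix around the egg, rose with Vcan and Cd44. It was 17.8, 29.2, 31.9 and 30.5 FPKM in WT and 44.7, 66.5, 64.0 and 39.9 FPKM in LRP1 KO. The groups did not overlap, and the log2 fold change of FPKM + 1 was 0.95 (SE 0.21, limma adjusted p = 0.0235). Its call was lost without WT replicate 2 or LRP1 KO replicate 2 or 3, with adjusted p up to 0.0681, and with no filter on low values (adjusted p = 0.0533). Of the inter-alpha-inhibitor chains and Ptx3 together, 3 of 7 genes were tested, and Ptx3 was the only one that passed. Of the other large hyaluronan-binding proteoglycans and the link proteins, 0 of 7 reached the filter, and 5 stayed under 0.1 FPKM in all libraries. Vcan was thus the only gene of that family with a WT mean of at least 1 FPKM.

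Of the proteases that cut versican, 2 of 5 tested fell, where 7.31% of all tested genes were called lower. Adamts9, a secreted metalloprotease, was 22.8, 25.3, 26.9 and 25.8 FPKM in WT and 11.9, 14.2, 11.6 and 22.0 FPKM in LRP1 KO, without overlap. Its log2(FPKM + 1) fell by 0.76 (SE 0.17, limma adjusted p = 0.0238). Adamts15 was 1.54, 2.32, 1.99 and 1.88 FPKM in WT and 0.117, 0.405, 0.214 and 1.40 FPKM in LRP1 KO, and its log2(FPKM + 1) fell by 0.996 (SE 0.22, limma adjusted p = 0.0226). In both genes LRP1 KO replicate 4 was the nearest to WT. The size of the fall of Adamts15, a low gene, depended on the pseudocount, at -2.08 with 0.1 and -0.33 with 5. Both calls depended on single libraries, and that of Adamts9 was also lost with no filter on low values (adjusted p = 0.0524). That of Adamts9 held in 2 of 8 fits with 1 library removed, those without WT replicate 1 and without LRP1 KO replicate 4, and that of Adamts15 in 3, those and the one without WT replicate 4. Without replicate 4 the fall of Adamts9 was -0.95 and that of Adamts15 -1.23. The other 3 tested proteases of the list, Adamts1, Adamts4 and Adamts5, did not pass.

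The most abundant hyaluronan-cleaving gene was Cemip, listed under an older symbol, whose protein is needed to break down hyaluronan in skin fibroblasts. It was 300.7, 339, 416 and 371 FPKM in WT, far above Hyal2, and 238, 232, 233 and 337 FPKM in LRP1 KO. The groups overlapped through LRP1 KO replicate 4, and the log2 fold change of FPKM + 1 was -0.46 (SE 0.14, limma adjusted p = 0.0545). Without that replicate it was -0.59 and passed (adjusted p = 0.00407). The hyaluronidase genes Spam1, Hyal4, Hyal5 and Hyal6 were listed at 0 in all libraries. None of the 3 exoglycosidases, lysosomal enzymes that trim the fragments, passed. Hexa, the highest, was 167 to 210 FPKM in WT and 157 to 182 FPKM in LRP1 KO (adjusted p = 0.468).

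**Figure D3:**
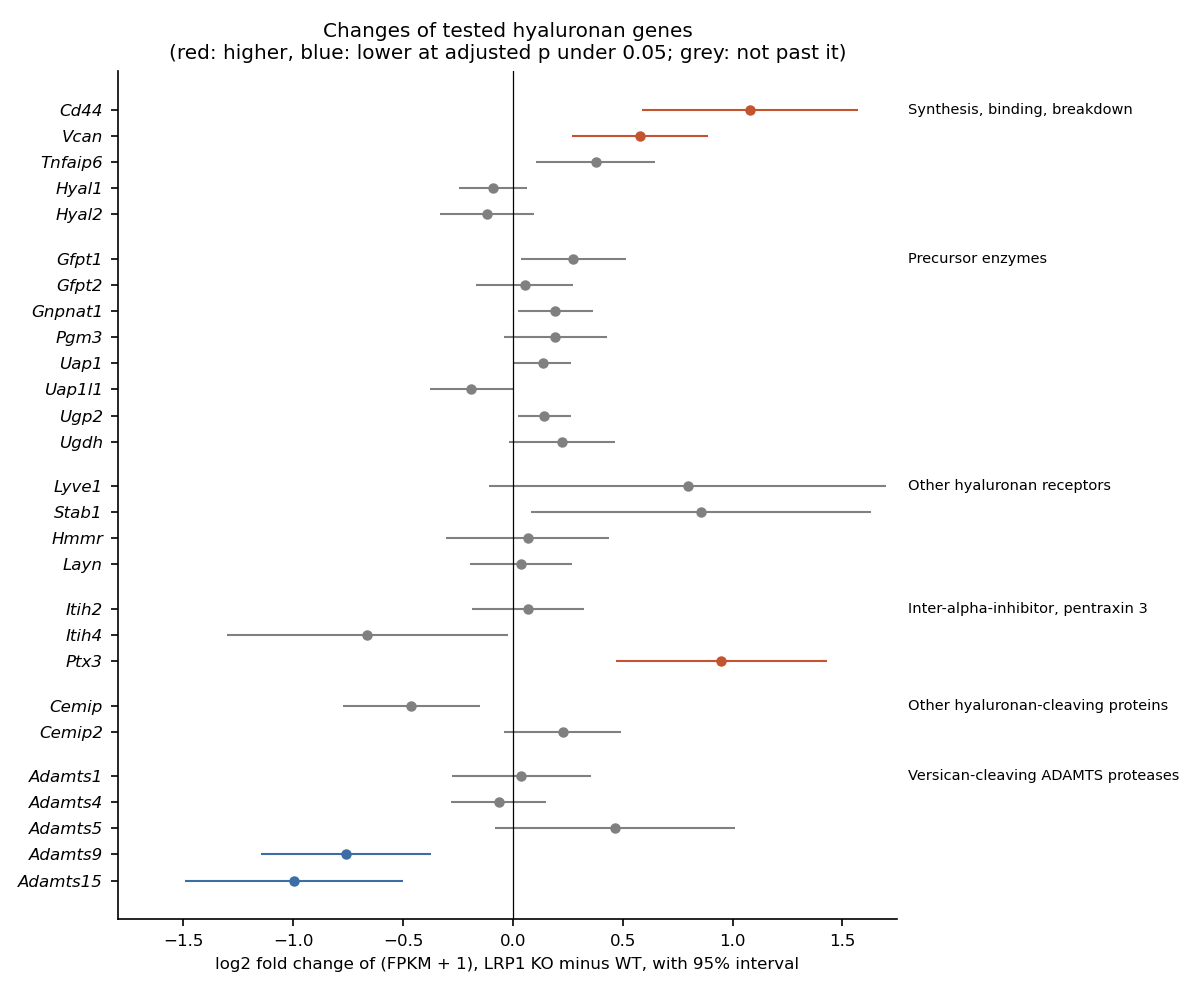
Points give the log2 fold change of FPKM + 1, LRP1 KO minus WT, for the tested genes of the hyaluronan set and its further lists other than the exoglycosidases, with 95% intervals from limma that are not adjusted for multiple tests. Cd44, Vcan and Ptx3 are in red as higher, Adamts9 and Adamts15 in blue as lower, and the rest in grey did not pass.

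Marker genes of several cell types moved with the groups, and their part in the hyaluronan results was not tested. Of 15 macrophage markers 9 were tested, and 8 of these were higher, where 6.27% of all tested genes were called higher. Of the 8, Adgre1 and Mrc1 (0.170 to 0.657 FPKM in WT, 1.55 to 5.51 FPKM in LRP1 KO) passed the filter through LRP1 KO libraries alone. That they were tested thus depended on the group in which they were high, and their calls add no support. The macrophage markers summed to 38.0 to 77.4 FPKM in WT and 181 to 476 FPKM in LRP1 KO. Their most abundant gene Lyz2 was 24.0 to 54.3 FPKM in WT and 238, 334, 129 and 298 FPKM in LRP1 KO replicates 1 to 4, and Cd68 was 7.36 to 8.87 FPKM in WT and 22.0 to 43.1 FPKM in LRP1 KO. Adgre1, which encodes the F4/80 antigen, was 0.126 to 0.475 FPKM in WT and 1.91 to 4.26 FPKM in LRP1 KO. The complement genes C1qb and C1qc were called higher, C1qb at 1.44 to 4.04 FPKM in WT and 13.4 to 40.5 FPKM in LRP1 KO. C1qa, at 0.399 to 1.85 FPKM and 1.08 to 12.1 FPKM, was the tested marker that did not pass. Of the other leukocyte markers, 2 of 3 tested were higher, with a sum of 2.92 to 3.58 FPKM in WT and 11.9 to 21.2 FPKM in LRP1 KO, and the pan-leukocyte gene Ptprc, under the filter, was 0.0316 to 0.161 FPKM in WT and 0.403 to 0.860 FPKM in LRP1 KO.

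Endothelial markers summed to 170 to 185 FPKM in WT and to 615, 391, 455 and 178 FPKM in LRP1 KO replicates 1 to 4. Of 14 tested, 14 had a positive fold change and 1, Eng, passed, where 5481 of all 11389 tested genes had a positive fold change and 6.27% were called higher. Without LRP1 KO replicate 4, 12 passed, where 12.6% of all tested genes were called higher. In that replicate Pecam1 was 6.72 FPKM and Cdh5 8.56 FPKM, both below every WT library. Mural markers, those of smooth muscle and pericytes, summed to 670 to 836 FPKM in WT and 1040 to 1627 FPKM in LRP1 KO, and 4 of 8 tested were higher, among them Acta2 and Tagln. Mesothelial markers summed to 2398 to 2744 FPKM in WT and 2048 to 2331 FPKM in LRP1 KO, with 2 of 7 lower, one of them Msln. Fibroblast markers summed to 2405 to 3594 FPKM in WT and 1995 to 3194 FPKM in LRP1 KO, with 2 of 10 tested lower. In the fit of all 8 libraries 7.31% of all tested genes were called lower. Without LRP1 KO replicate 4, 6 of the mural markers were higher and 5 of the mesothelial and 6 of the fibroblast markers lower, where 13.9% of all tested genes were called lower.

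The remaining marker lists held few tested genes. Lymphatic endothelial markers summed to 208 to 261 FPKM in WT, nearly all from Pdpn, and to 201 to 239 FPKM in LRP1 KO, with none of 3 passing. Cardiomyocyte markers summed to 101 to 155 FPKM in WT and 87.5 to 122 FPKM in LRP1 KO, with none of 2 passing. Hepatocyte markers summed to 1.14 to 1.85 FPKM in WT and 0.643 to 0.835 FPKM in LRP1 KO, and none was tested. Lung epithelial markers summed to 4.35 to 7.87 FPKM in WT and 4.12 to 7.41 FPKM in LRP1 KO, with 1 of 2 tested, Scgb1a1, lower.

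**Figure D4:**
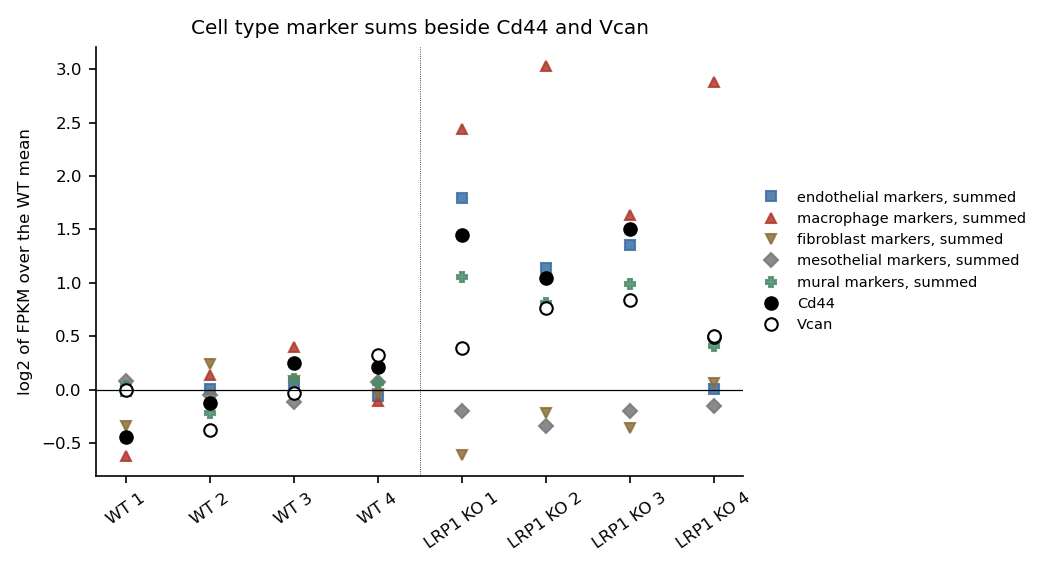
Points give, for each of the 4 WT and 4 LRP1 KO libraries, the log2 ratio of a summed marker level or of Cd44 and Vcan to its mean in WT, from FPKM with nothing added. Of the endothelial, macrophage, fibroblast, mesothelial and mural sums plotted, that of the macrophage markers lies highest in LRP1 KO. Cd44 and Vcan lie above their own WT values in each LRP1 KO library, and the endothelial sum in LRP1 KO replicate 4 is at the WT level.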

How the data were processed

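RNA was sequenced from 4 WT and 4 LRP1 KO libraries (total RNA, RNeasy extraction, TruSeq preparation), grouped by sample title. The authors deposited 1 table of values per gene and library. Its values were taken as FPKM that the authors had quantile normalized, because they are not whole numbers and the sums per library run only from 503571 to 504112. The unit is inferred, since the header names none. The submitters' processing notes name TopHat2, Cufflinks and mm10 without versions, while the study's methods describe counts from another pipeline, which were not used here. Depth, strandedness and counting error are thus unknown.

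A limma 3.58.1 model (R 4.3.3) with the group alone was fitted to log2(FPKM + 1) of the 11389 genes with at least 1 FPKM in at least 4 libraries, with variances that follow the mean and Benjamini-Hochberg adjustment. Fold changes on this scale understate those of low genes. Members under the filter were compared by an exact two-sided permutation test. The fit was tested on simulated data. Alternatives were other pseudocounts (0.1 and 5), other filters, rescaled libraries, a variance prior without a trend, a replicate block and leaving out each library in turn. Positions are from GENCODE M21 (GRCm38), matched by Ensembl identifier for 21740 of 22520 genes.

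The members and all gene and marker lists were chosen with earlier results of these data known. Genes named are the members, Lrp1, the genes that passed in each pathway list (up to 3) or otherwise its highest, the 2 highest of the marker lists and the 3 genes most like each member that passed. Pecam1, Cdh5, Adgre1, Mrc1, C1qa, C1qb, C1qc, Ptprc, Lyve1, Stab1, the remaining ADAMTS and hyaluronidase genes and the overlapping neighbours were named after their values were seen.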

Additional observations from a re-analysis of the deposited data

Results flagged for a closer look

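Each group of 4 libraries was searched for a library far from the other 3, in the 8 members, Lrp1 and the named pathway genes, with Dixon's 95% limit on the gap to the nearest library over the range. Of 32 groups examined 3 exceeded it, and chance flags about 1 group in 20. Has3 in WT replicate 2 was 0.246 FPKM, below the other WT libraries. Hyal2 in LRP1 KO replicate 3 was 12.4 FPKM, the lowest of its group. Cemip in LRP1 KO replicate 4 was 337 FPKM, above the other 3 LRP1 KO libraries and within the WT range.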

How the results depend on the processing

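Of 294 comparisons of a value with an alternative, 233 were counted as unchanged, 24 lost the threshold, 1 passed it (Cemip without LRP1 KO replicate 4, -0.59), 32 moved and 4 changed sign. Unchanged meant the same direction and side of the threshold or, for counts, staying within 1.5 times. For Has1, Has2 and Has3 with 1 library left out it meant a move smaller than the SD within groups, whatever the p. Has2 and Has3 are counted there although their exact permutation p rose to 0.0571. Cd44 kept its call at an adjusted p under 0.05 under every alternative other than leaving out WT replicate 2: its log2 fold change was 0.95 to 1.28 with 1 library left out (adjusted p 0.00142 to 0.0568) and 0.86 to 1.14 otherwise. Vcan ran from 0.47 to 0.68 with 1 library left out (adjusted p 0.0190 to 0.0810) and lost its call with no filter on low values (0.58, adjusted p = 0.0575), a setting that tests 18026 genes. Has3, which the filter kept out of the fit, passed there (-0.17, adjusted p = 0.0443), and Has2 did not (0.28, adjusted p = 0.0767). The numbers of members passing ran from 0 to 2 with 1 library left out. The genes of the pathway lists that passed ran from 0 to 3 as higher and 0 to 5 as lower with 1 library left out, and were 0 higher and 1 lower with no filter and 1 lower with a filter of at least 5. Layn changed sign without WT replicate 1 (-0.018), WT replicate 2 (-0.0075), LRP1 KO replicate 2 (-0.0030) or LRP1 KO replicate 4 (-0.016), and reached 0.10 without WT replicate 3. Over all genes, 512 (without WT replicate 2) to 3021 (without LRP1 KO replicate 4) passed with 1 library left out and 133 to 339 also reached 2-fold, a count that was 70 with a pseudocount of 5 and 113 with the filter of at least 5. Has2 and Has3, rerun with a pseudocount of 0.1 and with each library left out, kept their direction, but with 1 library out no exact p can be under 0.0571. The cause of these changes was not tested.

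The WT and LRP1 KO libraries share replicate numbers, but nothing ties same-numbered libraries to a shared animal or day, and their deviations from the group means correlated by 0.16, 0.14, 0.34 and -0.31 for numbers 1 to 4, with 2 of the 4 WT libraries correlating best with their own number. With a replicate block, 1013 genes passed, 493 higher and 520 lower, and 1 member passed: Cd44 did, and Vcan did not (0.58, adjusted p = 0.0617). Ptx3, Adamts9 and Adamts15 passed there too. Since depth is unknown, no limit from counting can be set on any value, and the low levels of Has1, Has2 and Has3 are the least certain.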
